A study of Rosa hybrid cultivar with 12 samples.

Results

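A group of 187 rose genes was higher in buds given auxin and lower in buds given more sucrose. The genes were chosen from the counts themselves, out of 42307 gene IDs listed and 24267 genes with enough counts to test. For each gene, the auxin difference was the mean of 6 differences between a library with auxin and one without it, at the same sucrose dose and harvest date. The sucrose difference was the mean of 6 differences between 100 mM and 10 mM, at the same auxin level and date. Both were taken on log2(CPM + 0.5), where CPM (counts per 1e6) uses library sizes scaled by the TMM method. A member needed an auxin difference of at least 1.2, a sucrose difference of at most -1.2, and all 6 differences of each kind on the same side of 0. It also needed a mean level of 2 to 700 CPM and more than 0.5 CPM on average without auxin. The pseudocount of 0.5 CPM understates the differences of the lowest genes.

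All libraries came from wild-type plants of a hybrid rose cultivar, with flower bud as the labelled tissue, although the series title speaks of budburst. The 4 groups had received 10 mM sucrose, 10 mM sucrose with 1 µM NAA, 100 mM sucrose, or 100 mM sucrose with 1 µM NAA. NAA is a synthetic auxin, and no group was without sucrose. Each group held 3 libraries, harvested on day 20 of June, August or October of 1 year, and replicate numbers 1, 2 and 3 stand for these dates. The titles number 3 replicates a group, but the series' design text mentions 2. The labels do not say whether buds were pooled, and the files hold gene IDs with no names, so no function could be given to a member and no marker could check the tissue.

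Auxin made in the growing tip of a shoot holds back the side buds below it, the effect known as apical dominance. Sugars that reach a bud promote its outgrowth, and serve both as fuel and as a signal. In rose stem pieces kept in culture, sucrose is known to weaken the hold of auxin on the bud. The title of the series names this antagonism, and the genes described here are those whose transcripts followed both factors in opposite directions.

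The libraries held 7369267 to 16757019 gene counts each. One of them, 10 mM with auxin in June (replicate 1), differed from the rest, with the lowest total and a TMM factor of 0.746, against 0.999 to 1.10 in the others. Group values of the members as a set under that treatment are given in the text with and without it, except that the June-to-October difference there needs it. Group means of single members under that treatment include it. RNA came from whole buds, where fewer cells of a type and less RNA per cell cannot be told apart.

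The rule narrowed the genes stepwise. Of 19256 genes within the limits on level, 398 met the limit on auxin, 335 the limit on sucrose and 203 both, and 16 of these 203 failed for at least 1 of the 12 signs. The member with the smallest auxin difference had 1.20443, and the nearest gene left out by that limit alone had 1.19663. The corresponding values for sucrose were -1.21047 inside and -1.19463 outside. On level, the members ran from 2.06 to 635.9 CPM, and the nearest genes left out had 1.81 and 765.6 CPM. The lowest mean without auxin was 0.644 CPM, against 0.276 CPM in the nearest gene outside. The genes next to the limits thus differed little from the last members in both differences.

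**Figure D1:**
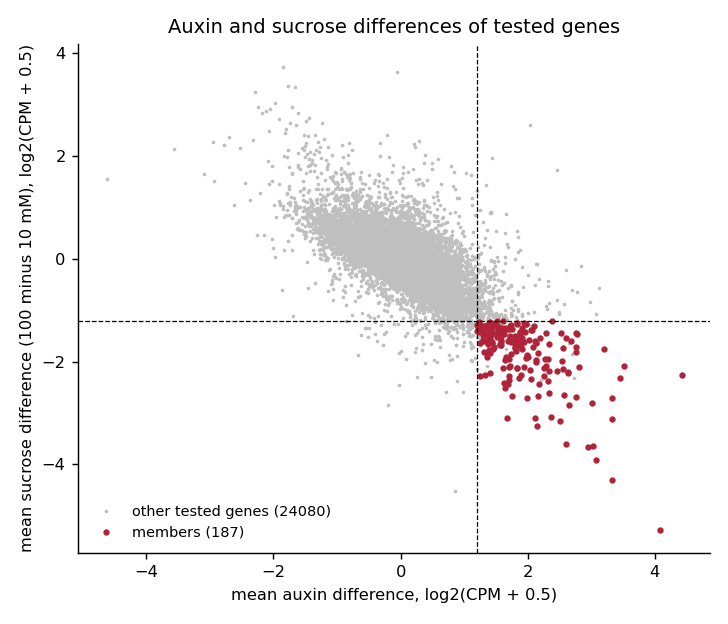
Each point is 1 tested gene, with its mean auxin difference on the x axis and its mean sucrose difference on the y axis, both on log2(CPM + 0.5). The 187 members (red) lie to the right of 1.2 and below -1.2 by construction, and run out to 4.42 for auxin and -5.27 for sucrose.

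The members differed widely in the size of their differences. The auxin difference had a median of 1.76 (quartiles 1.45 and 2.16, highest 4.42), a 3.39-fold higher level. The sucrose difference had a median of -1.63 (quartiles -2.12 and -1.40, lowest -5.27), a 3.09-fold lower level. At least 4-fold differences were found for auxin in 61 members, for sucrose in 54 and for both in 35. The auxin difference was the larger of the pair in 104 members and the sucrose difference in 83. Members with a larger auxin difference also tended to have a larger sucrose difference, at r = -0.61 (Spearman's rho -0.529) across the 187 genes. Both differences came from the same 12 libraries and were cut by the rule, so this is a description. By edgeR's quasi-likelihood test of the average effects, 185 of the 187 were called higher with auxin, where 12.2% of all tested genes were. For lower with 100 mM sucrose it was 166 of 187, where 6.91% of all tested genes were. With the replicate number as a block, 186 were called lower with sucrose, beside 11% of all tested genes. These calls repeat what chose the members.

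Together the members took a small share of the counts, and the share moved from library to library. At 100 mM sucrose alone it was 0.336%, 0.355% and 0.298% of gene counts in the June, August and October libraries. At 10 mM sucrose alone it was 1.33%, 1.75% and 0.842%, and at 100 mM with auxin 2.20%, 1.43% and 0.743%. At 10 mM sucrose with auxin the members held 3.60%, 6.03% and 2.85% of gene counts in June, August and October. The extremes, 10 mM with auxin and 100 mM alone, follow from the rule. The order of the groups between these extremes does not follow from either difference alone. The group means were 0.330% ± 0.0291, 1.31% ± 0.456, 1.46% ± 0.731 and 4.16% ± 1.66 in the order given here (SD, n = 3), so the groups in the middle differed by less than their spread. Without replicate 1 of 10 mM with auxin, the mean of that group was 4.44% (n = 2). Without that library the median member under this treatment stood at 104.2 CPM (n = 2), in place of the 112.4 CPM given next, and the median auxin difference over the members at 10 mM was 1.68, in place of 1.77.

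**Figure D2:**
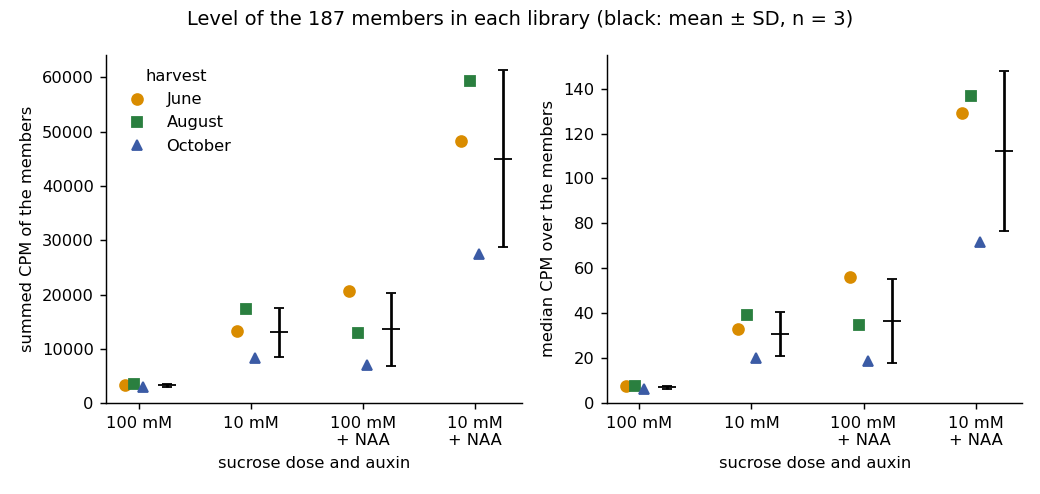
Summed CPM (left) and median CPM (right) of the 187 members in each library, by treatment, with the harvest date as colour and shape and the mean ± SD in black (n = 3). October (triangles) lies lowest in each of the 4 treatments, from a summed 2931 CPM at 100 mM alone to 27416 CPM at 10 mM with auxin.

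The median member followed the same order. It stood at 7.21 ± 0.672 CPM under 100 mM alone and at 30.8 ± 9.83 CPM under 10 mM alone (SD, n = 3). With auxin it reached 36.6 ± 18.8 CPM under 100 mM sucrose and 112.4 ± 35.6 CPM under 10 mM (SD, n = 3). At 10 mM with auxin, 104 members had a group mean of at least 100 CPM, a level that 9.35% of tested genes reached there. Without replicate 1 these were 96 members and 8.86% of tested genes. At 100 mM alone, 20 members had a group mean under 1 CPM. No few genes carried the sum: the 10 highest members of a library held 26.9% to 33.0% of the members' counts. For 10 mM alone above 100 mM with auxin, libraries free of overlap were seen in 0 members and in 9.03% of all tested genes. The 3 libraries with auxin stood above the 3 without it, with no overlap, in 167 members at 10 mM sucrose and 168 at 100 mM. Over all tested genes the shares were 16.6% and 14.3%. The 10 mM libraries stood above the 100 mM libraries in 171 members without auxin and 126 with it, where the shares of all tested genes were 14% and 11.4%. Without replicate 1 of 10 mM with auxin, 169 members (24.2% of tested genes) stood above 10 mM alone and 126 (18.4%) above 100 mM with auxin. These counts, too, restate the choice of members.

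The sum of both differences, which is the change from 10 mM alone to 100 mM with auxin, is largely set by the equal and opposite limits of the rule and is given as a description. From 10 mM alone to 100 mM with auxin, the median change was 0.08 on the log2 scale, with 104 members above 0 and 83 below, and a range of -1.42 to 2.16. By date the values were as follows. In June, 168 of 187 members were higher at 100 mM with auxin than at 10 mM alone, by a median of 0.63. In August 50 were higher and 137 lower (median -0.44), and in October 78 were higher and 109 lower (median -0.05). The same direction at all 3 dates was seen in 26 members that were higher and 11 that were lower. The libraries of both groups did not overlap in 2 members, both higher at 100 mM with auxin, where 6.85% of all tested genes did so. They were gene:RC2G0162100 and gene:RC4G0222000. The latter was picked once its values were known. Its level was 4.40 ± 0.447 CPM under 10 mM alone and 8.10 ± 2.08 CPM under 100 mM plus auxin (SD, n = 3).

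**Figure D3:**
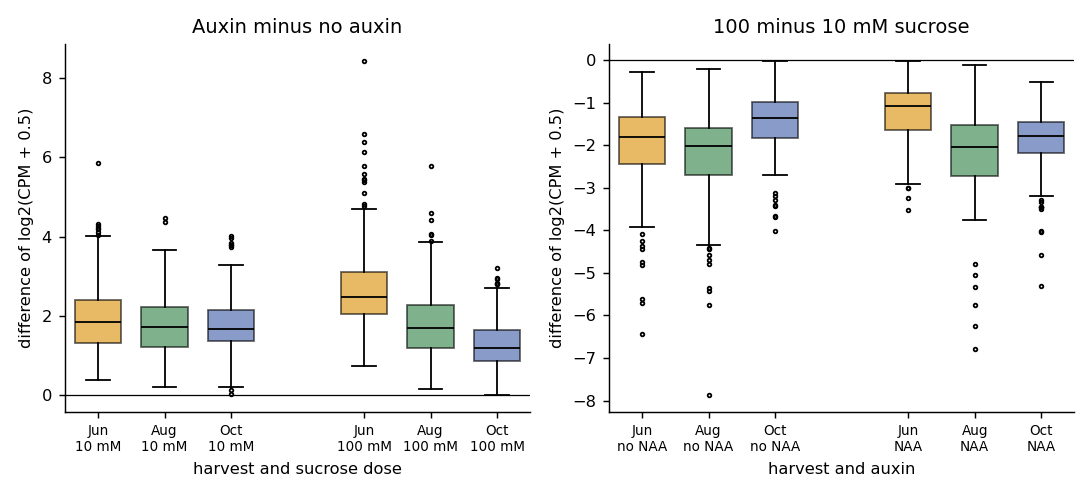
Differences of log2(CPM + 0.5) over the 187 members in each of the 6 auxin pairs (left) and 6 sucrose pairs (right), by harvest date. Boxes show the quartiles and median, whiskers reach to 1.5 times the interquartile range, and the median auxin difference at 100 mM runs from 5.56-fold in June to 2.30-fold in October.

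The member with the highest auxin difference was gene:RC2G0162100. It stood at 0, 1.08 and 0.717 CPM at 100 mM sucrose alone in June, August and October, and at 1.11, 7.12 and 4.39 CPM at 10 mM alone. With auxin it stood at 34.9, 18.4 and 7.45 CPM at 100 mM and at 92.8, 167.9 and 66.7 CPM at 10 mM. All 6 libraries with auxin lay above all 6 without it. Its auxin difference was 4.42 and its sucrose difference -2.27.

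The next highest auxin difference, and the lowest sucrose difference, belonged to gene:RC5G0073900. At 100 mM sucrose alone it was almost silent, at 0.433, 0.913 and 2.15 CPM, and at 10 mM alone it stood at 81.0, 329.4 and 23.8 CPM. With auxin it reached 323.3, 20.0 and 7.78 CPM at 100 mM and 1327, 2258 and 325.7 CPM at 10 mM in June, August and October. Here the groups in the middle overlapped, and the group at 100 mM with auxin rested on June, with 3152 counts against 312 in August and 119 in October. Its auxin difference was 4.08 and its sucrose difference -5.27.

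For gene:RC6G0028300, with the next lowest sucrose difference, the libraries at 100 mM sucrose alone held 0, 0 and 2 counts. At 10 mM alone it had 23.8, 26.7 and 2.63 CPM, at 100 mM with auxin 41.3, 1.60 and 2.61 CPM, and at 10 mM with auxin 333.2, 85.0 and 50.4 CPM in June, August and October. June was the highest date in both groups with auxin. Its differences were 3.33 for auxin and -4.30 for sucrose.

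The most abundant members showed the pattern at a much higher level. At 100 mM sucrose alone gene:RC6G0436900 stood at 158.9, 107.5 and 86.1 CPM, and at 10 mM alone at 376.5, 406.9 and 326.7 CPM. With auxin it had 773.5, 1010 and 268.0 CPM at 100 mM and 1069, 2209 and 839.8 CPM at 10 mM. The second, gene:RC1G0486900, went from 139.9 ± 36.6 CPM at 100 mM alone to 1453 ± 716.0 CPM at 10 mM with auxin (SD, n = 3). At the other end, gene:RC2G0298900 went from 0.119 ± 0.125 to 6.16 ± 4.99 CPM and gene:RC5G0252100 from 0.0914 ± 0.0843 to 4.33 ± 2.19 CPM between the same groups (SD, n = 3). The lowest of these values rest on 4 and 3 counts over the group.

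**Figure D4:**
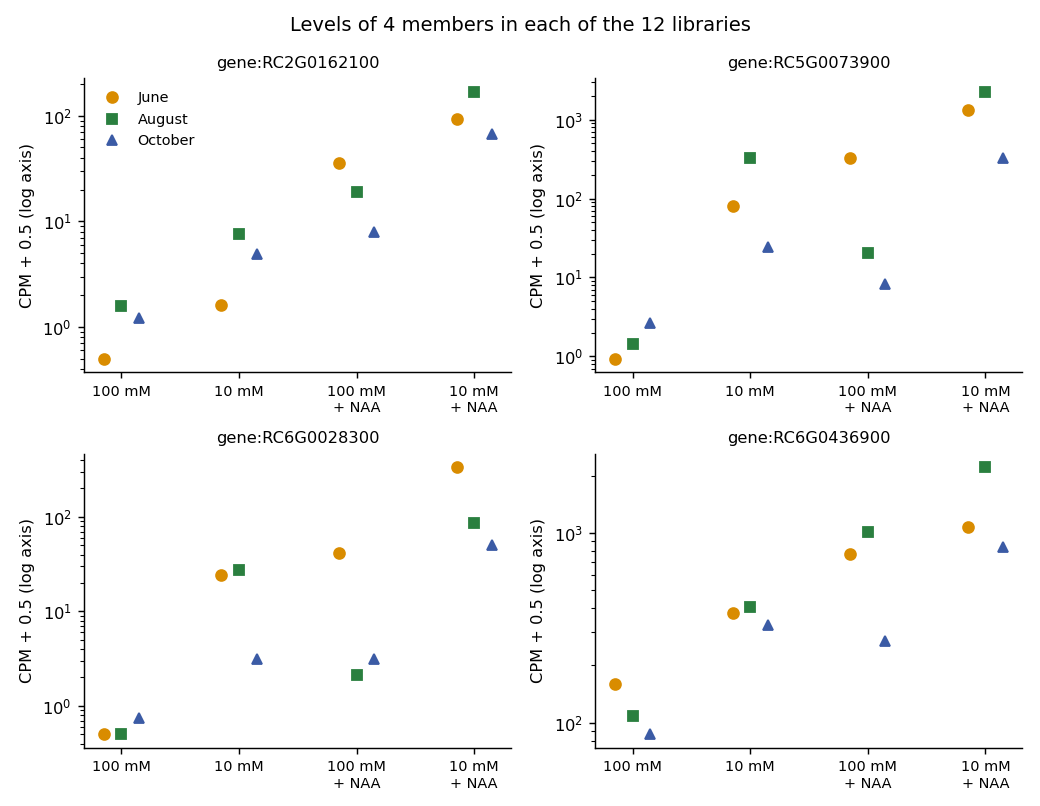
CPM + 0.5 on a log axis for 4 members in each of the 12 libraries, by treatment, with the harvest date as colour and shape. In each of them the group at 100 mM sucrose alone lies lowest and the group at 10 mM with auxin highest, and the October library is the lowest of the 3 at 10 mM with auxin.

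The rule averaged over sucrose doses, so it set no direct limit on how far the auxin effect of a member differed between them. It did require every auxin difference to lie above 0 at each dose, and every sucrose difference below 0 at each auxin level. Genes whose auxin effect was reversed at either dose were thus left out. The interaction values of the members are therefore not independent of the rule. On log2(CPM + 0.5) the median auxin difference was 1.77 at 10 mM and 1.77 at 100 mM, and 105 of 187 members had the larger value at 100 mM. In the edgeR quasi-likelihood test of the interaction, 0 members were called, and 0% of all tested genes. At an unadjusted p under 0.05 there were 9 members, all with a larger auxin effect at 100 mM. Of all tested genes 3.44% passed, and 1.89% passed in that direction. The 9 became 29 without replicate 3 of the group given 100 mM and auxin, and 20 without replicate 2 of the group given 10 mM and auxin. They became 5 and 26 without replicates 2 and 3 of the group given 10 mM alone. The same count was 24 with the replicate block, beside 6.94% of all tested genes, and 16 by DESeq2. For DESeq2 and the fits without 1 library the share of all tested genes was not counted. Those counts therefore cannot be set against a background. The fitted interaction had a median of 0.27 over the members and 0.02 over all tested genes. It was above 0 in 128 members. One library decided this direction, since leaving out the June library given 100 mM and auxin turned the median to -0.18. Leaving out the October library of that group gave 0.62.

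The members at both ends of the fitted interaction had wide errors. The highest value was 4.44 for gene:RC6G0028300 (SE 2.92, edgeR adjusted p = 0.963), whose group at 100 mM alone was close to 0 counts, so that the value depends on the prior count. It was 3.50 for gene:RC5G0073900 (SE 1.94, edgeR adjusted p = 0.963). The lowest was -1.69 for gene:RC6G0086600 (SE 0.976, edgeR adjusted p = 0.963). That gene stood at 8.89, 10.9 and 27.5 CPM at 10 mM alone and 181.7, 235.2 and 30.0 CPM with auxin, against 5.53, 9.38 and 9.08 and then 41.0, 20.5 and 9.54 CPM at 100 mM. On log2(CPM + 0.5) its auxin difference in June, August and October was 4.28, 4.36 and 0.13 at 10 mM and 2.78, 1.09 and 0.07 at 100 mM, so that October was lowest at both doses. For gene:RC1G0532700 the interaction was -1.13 (SE 1.54, edgeR adjusted p = 0.965), and 0.61 without the June library given 10 mM and auxin. In that library the gene reached 88.8 CPM, against 12.9 and 8.63 CPM in August and October. Its June-to-October change was past the threshold, at -2.91 (SE 0.382, edgeR adjusted p = 0.00408). Whether this call holds by DESeq2 or without 1 library was not examined.

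The rule set no limit on the difference between harvest dates, and each date held 1 library of every treatment. The libraries of every date did enter its means and signs, so the date differences are not independent of the choice of members. At equal treatment, 53 of the 187 members were lower in October than in June by edgeR's quasi-likelihood test, and 0 were higher. Over all tested genes, 2.4% were called lower and 2.1% higher. At an unadjusted p under 0.05, 142 members were lower, beside 10.9% of all tested genes, and 2 were higher. The median fitted change from June to October was -0.89 over the members, a 1.85-fold lower level, and -0.00289 over all tested genes, and it was below 0 in 182 members. The 53 called members fell by 0.785 to 3.26 on the log2 scale.

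October was also lower than August. There edgeR called 41 members lower, beside 1.96% of all tested genes, and 0 higher, beside 1.03%. At an unadjusted p under 0.05 there were 132 lower (background 8.89%) and 0 higher (background 9.01%). The median change from August to October was -0.85 over the members and 0.01 over all tested genes. Both comparisons called 19 members (10.2%). The comparisons share the October libraries, and the share of all tested genes called by both is not given here. Between June and August the members did not move one way. On log2(CPM + 0.5) their median change was 0.36 and 0.38 under 10 mM without and with auxin. It was 0.17 under 100 mM alone and -0.77 under 100 mM with auxin, each from 1 library per date. Over all tested genes these medians lay between 0.02 and 0.06. The fitted median change of the members was -0.07, with 2 called higher (background 0.581%) and 6 lower (background 0.676%). The 2 were gene:RC4G0172700 (1.52, edgeR adjusted p = 0.0111) and gene:RC1G0040900 (0.80, edgeR adjusted p = 0.0405), picked once their values were known. At an unadjusted p under 0.05, 21 were higher (background 8.33%) and 29 lower (background 9.56%). The calls rested on single libraries, and those over all tested genes (141 higher and 164 lower) moved too. Without the August library given 100 mM and auxin 0 members and 0 tested genes were called in either direction. Without the June library of that group 0 members and 19 tested genes were lower, and the median over the members was 0.27. Members called lower were 2 and 3 without the August library given 10 mM with and without auxin, beside 39 and 60 tested genes. The higher calls were 1 in each of 5 other fits without 1 library: the August library given 10 mM with auxin, the June and the August library given 10 mM alone, the October library given 100 mM and auxin, and the June library given 100 mM alone. These 5 fits called 25, 11, 18, 50 and 68 tested genes higher, in the order given. DESeq2 called 7 members higher and 12 lower, beside 374 and 635 tested genes.

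Within a treatment the change from June to October rests on 1 library at each date. On log2(CPM + 0.5), its median over the members was -0.72 under 10 mM sucrose, both without and with auxin. It was -1.50 under 100 mM plus auxin. Under 100 mM alone, where the members were lowest, it was -0.16. Over all tested genes these medians lay between -0.02 and 0.04. October was below June in 170 and 173 members under 10 mM without and with auxin, and in 115 and 185 members under 100 mM without and with it. Of the 24267 tested genes, 11071, 11385, 12530 and 11412 were below, in the same order. October was lower in all 4 treatments in 100 members (53.5%), against 10.9% of all tested genes. The difference between treatments was not tested.

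**Figure D5:**
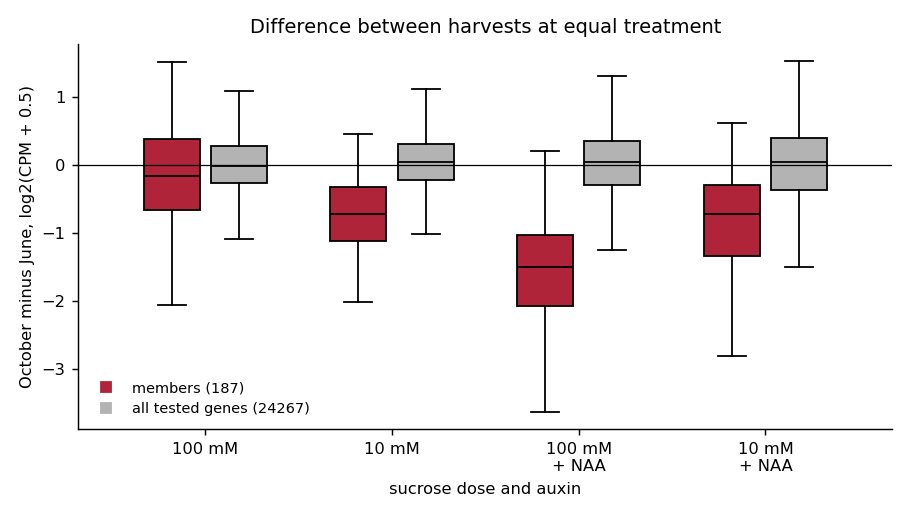
October minus June on log2(CPM + 0.5) in each treatment, for the 187 members (red) and all 24267 tested genes (grey). Boxes show the quartiles and median and whiskers reach to 1.5 times the interquartile range, without outlying points. The median of the members is lowest, at -1.50, at 100 mM sucrose with auxin.

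Across the 187 genes the change to October was related to the auxin difference (r = -0.42, Spearman's rho -0.443) and to the sucrose difference (r = 0.47, Spearman's rho 0.413). All 3 measures share the 12 libraries, so this is a description. The largest falls to October belonged to gene:RC6G0028300, described above, at -3.26 (SE 0.693, edgeR adjusted p = 0.0292), and gene:RC6G0187700, at -3.06 (SE 0.724, edgeR adjusted p = 0.0395). In June, August and October the latter stood at 10.3, 8.96 and 1.63 CPM under 10 mM alone and at 100.2, 102.6 and 29.9 CPM when auxin was added. Under 100 mM it had 0, 0.498 and 0.478 CPM, and 47.8, 3.21 and 1.37 CPM when auxin was added. October was the lowest date in 3 of the 4 treatments. Both calls were lost by DESeq2 (adjusted p = 0.251 and 0.177). Without 1 library at a time, gene:RC6G0028300 was called in 8 of 12 edgeR fits (adjusted p = 0.00739 to 0.143) and gene:RC6G0187700 in 5 of 12 (adjusted p = 0.0158 to 0.207).

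The opposite end held members that did not follow this. At equal treatment gene:RC1G0092500 changed by 0.78 from June to October (SE 0.312, edgeR adjusted p = 0.173) and gene:RC3G0321300 by 0.78 (SE 0.297, edgeR adjusted p = 0.159), neither past the threshold. The former was the only member higher in October than in June in all 4 treatments, where 14.5% of all tested genes were. It went from 9.69 to 19.5 CPM under 10 mM alone and from 31.6 to 43.4 CPM when auxin was added. Under 100 mM alone its June and October levels were 0.650 and 5.14 CPM, and those with auxin were 11.3 and 11.8 CPM.

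The number of members called lower in October rested on single libraries, as did that of all tested genes. The count of 53 became 10 when the October library given 100 mM and auxin was left out, and 18 when the June library of that group was. Leaving out the October library given 10 mM and auxin gave 17, and that of 10 mM alone gave 22. Leaving out the October library given 100 mM alone gave 96. In the same order, the 582 tested genes called lower became 74, 144, 172, 244 and 1130. In the 12 fits without 1 library the median change over the members stayed between -1.05 and -0.60. In these fits 0 members were called higher, beside 11 to 1146 tested genes. For October against August the count of 41 ran from 6 to 81, and that of 476 tested genes from 76 to 867. Without the June, August or October library given 10 mM and auxin it was 75, 14 or 9 members. Tested genes were then 867, 253 or 135. For the group given 100 mM and auxin the member counts were 64, 23 and 6, beside 487, 160 and 76 tested genes. Leaving out the August or October library of 10 mM alone gave 8 or 13, beside 104 or 278. Leaving out the October library of 100 mM alone gave 81, beside 769. Harvest date and replicate number are the same split and cannot be told apart. Depth also differed between dates, with overlap, and its part in the result was not tested. The June libraries had 7369267 to 9881297 gene counts, the August libraries 12068935 to 16757019 and the October libraries 8229391 to 15896711. In June the labelled planting date also differed between the 4 treatments, from 2 May to 2 August, while in August and in October it was common to all 4. Some of these planting dates come after the harvest they belong to.

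A set of 80 genes met the mirrored limits, lower with auxin and higher with sucrose. Of these, 13 (16.2%) were called higher in October than in June by edgeR and 0 lower, where 2.1% and 2.4% of all tested genes were, and their median change was 0.76. The difference between the sets was not tested.

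The members had little else in common that the files could show. Reads on the opposite strand made up a median of 0.138% of a member's stranded counts, against 0.142% over all tested genes. The highest value was 9.22%, so no member was counted mainly on the other strand. The members' IDs were spread over all 8 number blocks of the gene list. The block starting RC6 held 37 members (19.8%) and 14.3% of tested genes, and the block starting RC1 held 19 members (10.2%) and 13.3% of tested genes. Members next to each other in the list formed 4 neighbouring pairs, and 3 of the IDs, gene:RC6G0043400, gene:RC6G0043500 and gene:RC6G0043600, stood in a row (picked once their values were known). Their auxin differences were 2.13, 1.88 and 1.88, and their sucrose differences -1.97, -1.67 and -1.48. Their mean levels were 15.8, 9.78 and 38.2 CPM. The files do not show whether such neighbours are near-identical copies, whose reads could be lost or shared.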

How the data were processed

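The authors deposited raw whole-number read counts per gene, in 1 file for each of the 12 libraries. Per the file headers, each file gives unstranded, forward and reverse counts, and the reverse column was used. Per the labels' protocols, RNA was selected for polyA and made into stranded, paired-end libraries. The submitters' processing notes name TopHat2 and Bowtie2. Which counter, genome build and annotation were used is not given in the sources used here. Summary rows naming no gene (17.3% to 23.2% of reads) were left out, of which multimapping reads were 3.15% to 5.44%.

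In R 4.3.3, edgeR 4.0.16 quasi-likelihood models were fitted to all genes passing filterByExpr (minimum count 10, minimum total 15), with Benjamini-Hochberg adjustment over 24267 genes and a threshold of 0.05. All 187 members passed this filter. Average effects and the interaction used 1 mean per group, and harvest dates were tested with treatment as a term. The biological coefficient of variation was 0.244, and 0.187 with the replicate block. DESeq2 1.42.0, other scalings, no filter, the unstranded column and leaving out each library were alternatives. The SE is the log2 value divided by the square root of the F statistic. The models were also run on simulated counts, with a coefficient of variation of 0.187 for every gene and no correlation between libraries of a date. That setting is simpler than these data.

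In the labels each replicate number has its own harvest date, so numbers pair libraries. The 18 pairs with equal numbers had deviations from their group means that correlated with r from 0.0647 to 0.592 (mean 0.298). The labels do not say that libraries came from separate plants, so p-values measure the spread between these libraries, which may be technical in part. No 2 libraries of a group agreed within counting noise. The members, rule and tests were chosen with earlier results of these data known. Named members are the 2 with the highest auxin difference, the 2 with the lowest sucrose difference, and the 2 highest and 2 lowest in level, interaction and change from June to October. Others are named where the text says they were picked from their values or as neighbours in the list.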

Additional observations from a re-analysis of the deposited data

How the results depend on the processing

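The number of members was 160 to 216 with 1 library left out at a time, and 287 and 98 with limits of 1.0 and 1.5 in place of 1.2. It was 182 with size factors from DESeq2, 137 with total counts, 143 with 2 CPM added and 184 with strand ignored, and 181, 137, 143 and 176 of these were among the 187. The replicate block gave 2675 genes lower with sucrose in place of 1678 (897 to 1845 without 1 library), and moved no other count at an adjusted p under 0.05 over 1.5 times. At an unadjusted p under 0.05 it gave 24 members for the interaction in place of 9, beside 6.94% of all tested genes in place of 3.44%. Without the low-count filter there were 17 members, and the share of all genes was not counted. DESeq2 called 1 gene for the interaction, not a member. The interaction of gene:RC1G0532700 ran from -2.42 to 0.61 without 1 library. For October against June, DESeq2 called 843 genes higher, 992 lower and 80 members lower, and the ranges without 1 library were 11 to 1146, 74 to 1130 and 10 to 96. Without both June libraries with auxin, chosen after seeing the data, these counts were 13, 93 and 15, with a median over members of -0.55. For October against August, members called lower were 75 by DESeq2, 68 without the low-count filter, 103 without both June libraries with auxin and 6 to 81 without 1 library. Over all genes the calls were 766, 662, 822 and 76 to 867 in these settings, in place of 476. With total counts, also chosen after seeing the data, the median change to October was 0.12 over all genes and -0.75 over members. Without both June libraries with auxin 0 members were called between June and August, beside 1 gene higher and 4 lower over all tested genes. Total counts gave 6 members higher and 5 lower, beside 308 and 181 of all tested genes. The causes were not tested. Members near 0 counts at 100 mM sucrose alone have the least depth behind their values, and depth was not varied.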
